A study of Solanum tuberosum with 8 samples.

Results

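Cytochrome P450 genes made up 105 of the 32768 genes in the table of counts from potato tubers. They are the genes whose product name in the annotation contains "cytochrome P450", without the families CYP74, CYP77, CYP86 and CYP94, and with at least 80 counts summed over the 8 libraries. Of 193 genes with such a product name, 13 were left out by family and 75 by the count minimum. The 3 genes just above that minimum had 83, 86 and 94 counts, and the 3 just below it had 72, 74 and 78. The 105 genes were 104 genes named as P450s, in 23 families and 28 subfamilies by the number in the name, and the gene of NADPH-cytochrome P450 reductase, LOC102604882. A P450 protein domain was listed for 103 of them, and the reductase and the CYP72A219-like LOC102583853, which is annotated as a transcribed pseudogene, had none. P450 enzymes that the annotation names by their reaction, such as premnaspirodiene oxygenase, are not among the 105.

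The study sequenced poly(A) RNA from pooled tubers of the diploid potato population 12-3, an F1 from the cross of DG 00-683 with DG 08-28/13, to find genes that differ with tuber starch content (TSC). There were 4 bulks, each with the replicate libraries A and B. Bulk L1 pooled plants of low TSC and high *AGPaseS-a* expression, and bulk H1 plants of high TSC and high *AGPaseS-a* expression. Bulk L2 pooled plants of low TSC and low *AGPaseS-a* expression, and bulk H2 plants of high TSC and low *AGPaseS-a* expression. *AGPaseS-a* encodes a subunit of ADP-glucose pyrophosphorylase, which makes the sugar nucleotide used for starch synthesis. All tubers were fully developed, taken after harvest and untreated, from plants grown in pots with soil under a tent. A bulk is a mixture of several genotypes of 1 cross, so a level in it is a mean over plants. The sources used here do not say whether both libraries of a bulk came from the same plants, and p-values measure the spread between these libraries only.

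P450 enzymes are haem proteins that use molecular oxygen to insert an oxygen atom into small molecules, and plants have a large set of them. Most plant P450s are anchored in the endoplasmic reticulum and take their electrons from NADPH through P450 reductase. The families are grouped into clans. The large CYP71 clan holds enzymes of phenylpropanoid, terpenoid and defence metabolism, and the CYP72 and CYP85 clans hold, among others, enzymes that make or inactivate plant hormones and sterol-derived compounds. In the Solanaceae, P450s take part in the synthesis of sesquiterpene phytoalexins and of steroidal glycoalkaloids, the toxic alkaloids of potato. Here 63 genes in 11 families belonged to the CYP71 clan, 28 genes in 4 families to the CYP72 clan, 5 genes in 4 families to the CYP85 clan, 5 genes of family CYP704 to the CYP86 clan, and 1 gene each to the CYP97, CYP710 and CYP711 clans.

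Total counts ran from 15293539 to 31943185 over the libraries. H1 replicate A and H2 replicate B stood apart from the other 6 libraries, at 74.7 and 43.5 on a first principal component that held 46.5% of the variance, with the others between -26.1 and -15.3. The libraries carried the RNA of tuber storage tissue: patatins, the storage proteins of the tuber, summed to 13474 to 18821 CPM (counts with each library scaled to a common total) in the low TSC libraries and 19013 to 25497 CPM in the high TSC libraries. The summed level of genes for periderm and wound tissue was 176 to 283 CPM in the low TSC libraries and 137 to 173 CPM in the high TSC libraries. The sums of the patatins and of the periderm genes thus did not overlap between low and high TSC. For the periderm genes this held for the sum only. Over the 18 of them tested, the median log2 fold change of low over high TSC was -0.09, against the direction of the sum. In pooled tubers, fewer cells of a type and less RNA per cell cannot be told apart. Green tissue genes (73.8 to 273 CPM in low TSC, 65.1 to 283 CPM in high TSC) and genes of dividing cells (1620.1 to 1897 CPM in low TSC, 1582 to 2418 CPM in high TSC) overlapped. The part of tissue make-up in the results below was not tested.

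The P450 genes were mostly expressed at low levels. Over the 104 P450 genes the median of the mean CPM was 3.78, against 9.44 for all 20389 genes tested, and 30 genes had a mean of at least 10 CPM, 56 between 1 and 10 CPM and 18 under 1 CPM. The 10 highest of them held 46.4% of the summed CPM of all 104. The total count of a gene over the 8 libraries ranged from 83 to 46893 with a median of 828, and 18 genes had no count in at least 1 library. All 105 genes passed the filter on low counts. Levels of different genes are compared here as CPM per kb of gene span, which includes introns, because this was the only length at hand. On that scale the median was 1.35 and the range 0.0617 to 40.9. Family CYP81 had the highest median (19.5, 2 genes), followed by family CYP89 (14.4, 4 genes), family CYP83 (7.59, 7 genes) and family CYP98 (6.46, 2 genes). The largest families were lower, with medians of 0.808 in family CYP72 (22 genes), 1.59 in family CYP71 (17 genes) and 0.829 in family CYP82 (10 genes). These medians stand over wide ranges, from 0.0617 to 17.9 in family CYP72.

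**Figure D1:**
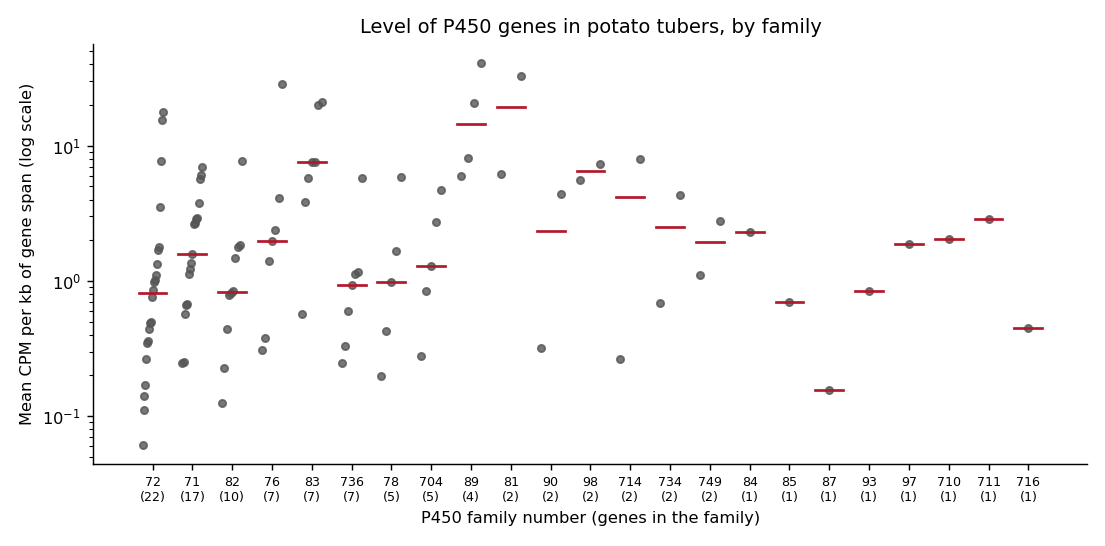
Mean level of each of the 104 P450 genes over the 8 libraries, as CPM per kb of gene span on a log axis, by P450 family (the number of genes is in brackets). Each grey point is a gene and each red line is the median of a family. Families CYP81, CYP89 and CYP83 had the highest medians among families of more than 1 gene (19.5, 14.4 and 7.59), and the 22 genes of family CYP72 ran from 0.0617 to 17.9.

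The gene of P450 reductase, the enzyme that passes electrons from NADPH to the P450s, had 255.0 and 225.0 CPM in L1, 165.0 and 219.0 CPM in H1, 226.0 and 240.2 CPM in L2, and 241.0 and 143.0 CPM in H2. Its 2 lowest values were those of H1 replicate A and H2 replicate B. Per kb of span it was at 31.3, below 2 of the enzymes. The enzyme with the highest level, the CYP89A2-like gene LOC102602556 (40.9 CPM per kb), had 41.6 and 50.5 CPM in L1, 116.0 and 75.6 CPM in H1, 64.9 and 55.4 CPM in L2, and 39.6 and 138.0 CPM in H2. It was highest in the same 2 libraries in which the reductase was lowest. In Arabidopsis an enzyme of the CYP89A subfamily oxidises breakdown products of chlorophyll. The other 2 CYP89A2-like genes among the highest 10 per kb, LOC102578421 and LOC102579747, were among the most even, with 33.6 to 50.7 and 34.9 to 47.1 CPM over the 8 libraries.

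Other highly expressed enzymes varied widely within a bulk. The CYP76A2-like gene LOC102594375 had 41.0 CPM in L1 replicate A and 155.0 CPM in L1 replicate B, 37.6 and 40.5 CPM in H1, 97.5 and 24.2 CPM in L2, and 94.6 and 42.7 CPM in H2. The CYP72A219-like gene LOC102602639 had 12.8 and 102.0 CPM in L1, 66.2 and 57.1 CPM in H1, 34.0 and 23.1 CPM in L2, and 24 and 14.8 CPM in H2. In both genes the 2 libraries of L1 were far apart, and low and high TSC overlapped. The CYP72A219-like gene LOC102579638 ran from 28.7 to 59.1 CPM with the bulks overlapping. The CYP72A subfamily includes, in potato, enzymes of glycoalkaloid synthesis, and the annotation does not tell which of the CYP72A genes these are.

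**Figure D2:**
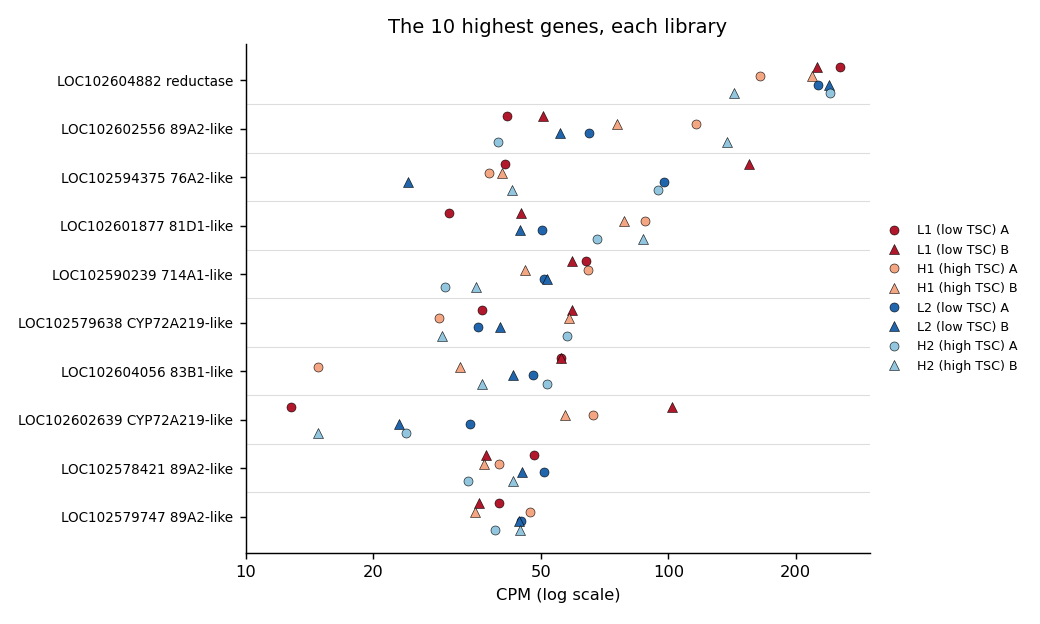
CPM of 10 of the 11 genes with the highest mean CPM in each of the 8 libraries, on a log axis (circles, replicate A, and triangles, replicate B). The CYP90A1 gene LOC102604556, at rank 10 with a mean of 41.3 CPM, is not shown. LOC102579747, at rank 11 with the same rounded mean, is shown. P450 reductase was at 143.0 to 255.0 CPM, and the CYP76A2-like gene LOC102594375 and the CYP72A219-like gene LOC102602639 spread from 24.2 to 155.0 and from 12.8 to 102.0 CPM.

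Replicates A and B differed by at least 2-fold in 12.4% of the 105 genes in L1, 14.3% in H1, 7.62% in L2 and 16.2% in H2, with 2 added to each CPM. Over all genes tested these shares were 2.4% in L1, 15.8% in H1, 2.18% in L2 and 9.0% in H2. The median difference was 0.29 on the log2 scale in L1 and 0.266 in L2, against 0.2 and 0.183 over all genes. The libraries H1 replicate A and H2 replicate B were both above the other 6 libraries in 8 of the 105 genes (7.62%, against 17.1% of all genes) and both below them in 14 (13.3%, against 21.6%). Of those below, the CYP72A15-like gene LOC102603234 had 6.43 and 0.43 CPM in those libraries and 7.5 to 36.3 CPM in the others. The CYP93A3-like gene LOC102582301 had 0.0794 and 0.043 CPM there and 0.98 to 2.94 CPM elsewhere, and the CYP82C4-like gene LOC102592814 had 2.14 and 2.45 CPM against 4.48 to 6.65 CPM. The CYP71A1-like LOC107062908 (0 and 1.16 CPM, against 1.63 to 8.76 CPM), the CYP83B1-like LOC102587759 (0.159 and 0 CPM, against 1.03 to 3.46 CPM) and the CYP71D7-like LOC102579846 (0.238 and 1.12 CPM, against 1.35 to 8.08 CPM) were also below. Above the others were the CYP83B1-like gene LOC102590811 (64.9 and 45.8 CPM, against 24.5 to 34.4 CPM) and the CYP76A1 gene LOC102599544 (10.1 and 6.49 CPM, against 1.1 to 4.61 CPM) and the CYP71D7-like gene LOC107061698 (2.22 and 2.58 CPM, against 0 to 0.847 CPM). In tobacco, enzymes of the CYP71D subfamily make the sesquiterpene phytoalexin capsidiol.

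In tubers of low TSC, CYP71A4-like and CYP71A3-like genes that lie next to each other and a CYP710A1-like sterol desaturase gene were higher than in tubers of high TSC, and a CYP81D1-like gene was lower, in every library of both pairs of bulks. The means were 9.63 ± 5.3 CPM in low TSC and 1.75 ± 0.579 CPM in high TSC for the CYP71A4-like gene (SD, n = 4 each). Low TSC was compared with high TSC over both pairs of bulks, in a fit of all 8 libraries with a mean for each bulk. Fold changes are given as log2FC of low over high TSC with the standard error (SE), and p is unadjusted unless an FDR is named. At p under 0.05 there were 15 of the 105 P450 genes (14.3%, with 6 higher and 9 lower in low TSC), against 7.84% of all genes tested (3.09% higher and 4.75% lower). The median log2FC was 0.01 for the P450 genes and 0.02 for all genes, so the P450 genes had no common direction. None of the 105 passed an FDR under 0.05 with an absolute log2FC of at least 1.5 in the quasi-likelihood test of edgeR, adjusted by Benjamini-Hochberg, in which 0.0% of all genes passed and the lowest FDR of a P450 gene was 0.623. DESeq2 had 19 P450 genes at p under 0.05 (18.1%, against 10.4% of all genes) and called 1 of them, among 66 genes in all. The libraries did not overlap between low and high TSC in 8 P450 genes (7.62%, against 6.24% of all genes), and 6 of the 15 were among them (3.39% of all genes had both). The count of 15 was 8 without L1 replicate A (7.62%, against 3.86% of all genes), 7 without L2 replicate A (6.67%, against 3.81%) and 20 without H1 replicate A and H2 replicate B (19.0%, against 8.98%). Without H1 replicate B there were also 20, and their share of 19.0% was then below the 24.2% of all genes. With scaling to library totals, which moved the median log2FC of all genes to 0.14, 10 were higher and 4 lower. Patatins were lower and the summed periderm genes higher in the same libraries.

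The gene with the lowest p was LOC102591644, a CYP71A4-like enzyme, and its neighbour on the same scaffold, the CYP71A3-like gene LOC102590625, came after it and LOC102601877. In Arabidopsis, enzymes of the CYP71A subfamily act in the synthesis of the phytoalexin camalexin; the reactions of these potato enzymes are not given by the annotation. LOC102591644 had 13.4 and 6.78 CPM in L1, 1.35 and 1.82 CPM in H1, 3.61 and 14.7 CPM in L2, and 1.28 and 2.54 CPM in H2. All 4 low TSC libraries were above all 4 high TSC libraries. The log2FC was 2.46 (SE 0.52), and it was this gene that DESeq2 called (log2FC 2.45, FDR 0.00269). In each pair of bulks alone it was 2.66 (SE 0.74) for L1 over H1 and 2.27 (SE 0.72) for L2 over H2. Without L2 replicate B the value for L2 over H2 was 0.93, no longer at p under 0.05, and over both pairs the leave-one-out values ran from 1.8 to 2.81. Without H1 replicate A and H2 replicate B it was 2.65 (SE 0.69).

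LOC102590625 had 22.6 and 10.6 CPM in L1, 7.38 and 3.59 CPM in H1, 11.1 and 21.2 CPM in L2, and 7.27 and 7.13 CPM in H2. Its log2FC was 1.38 (SE 0.36), again with no overlap between low and high TSC. The 2 genes start at bases 1254256 and 1258622 of scaffold NW_006238981.1 of the assembly SolTub_3.0, 4.37 kb apart, and their levels followed each other over the 8 libraries (Pearson's r = 0.9, a description over libraries that share depth and bulk). In both, L1 replicate A and L2 replicate B were the highest libraries. The remaining CYP71A gene of this scaffold among the 105, the CYP71A6-like LOC102589304, starts at base 1173231 and had at most 0.957 CPM. Counts of such neighbours are uncertain where their sequences are nearly identical, since the treatment of reads that match several genes is not given.

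The CYP81D1-like gene LOC102601877, the second highest enzyme per kb, was lower in low TSC. It had 30.2 and 44.7 CPM in L1, 88 and 78.4 CPM in H1, 50.2 and 44.5 CPM in L2, and 67.8 and 86.9 CPM in H2. No low TSC library reached a high TSC library, and the log2FC was -0.93 (SE 0.20). It was -1.15 (SE 0.28) for L1 over H1 and -0.71 (SE 0.28) for L2 over H2, where it was -0.52 and not at p under 0.05 without H2 replicate B. Its 2 highest libraries were H1 replicate A and H2 replicate B, and without both the log2FC was -0.79 (SE 0.19). The other enzyme of family CYP81, the CYP81D11-like gene LOC102579426, had 1.07 and 5.72 CPM in L1, 18.6 and 2.89 CPM in H1, 3.74 and 9.27 CPM in L2, and 41.3 and 8.51 CPM in H2 (log2FC -1.79, SE 0.78). It overlapped between low and high TSC. In Arabidopsis, a CYP81D enzyme is known for its induction by foreign chemicals and by jasmonate. The summed level of family CYP81 was 47.3 ± 10.9 CPM in low TSC and 98.1 ± 12.7 CPM in high TSC (SD, n = 4 each).

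The CYP710A1-like gene LOC102581211 belongs to the family of sterol C-22 desaturases, enzymes that make stigmasterol from sitosterol in Arabidopsis and tomato. It had 7.31 and 9.51 CPM in L1, 1.43 and 3.08 CPM in H1, 6.22 and 5.85 CPM in L2, and 3.93 and 5.07 CPM in H2, with no overlap between low and high TSC. The log2FC was 1.15 (SE 0.32) over both pairs and 1.88 (SE 0.47) for L1 over H1. For L2 over H2 it was 0.42 (SE 0.45), not at p under 0.05, so most of the change lay in L1 against H1. The difference between the pairs was 1.46 (SE 0.64), also not at p under 0.05. Without H1 replicate A the value for L1 over H1 was 1.45. The CYP72A219-like gene LOC107060887 was also higher in every low TSC library, with 34 and 36 counts in L1, 1 and 13 counts in H1, 85 and 75 counts in L2, and 15 and 14 counts in H2 (log2FC 1.88, SE 0.65, or 2.94 without H1 replicate B). The CYP71A1-like gene LOC102584170 was lower in low TSC, with 25 and 17 counts in L1, 25 and 36 counts in H1, 2 and 23 counts in L2, and 28 and 75 counts in H2 (log2FC -1.94, SE 0.78). Its value rested on few counts and was -1.39, no longer at p under 0.05, without H2 replicate B, and -3.2 without L2 replicate B.

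**Figure D3:**
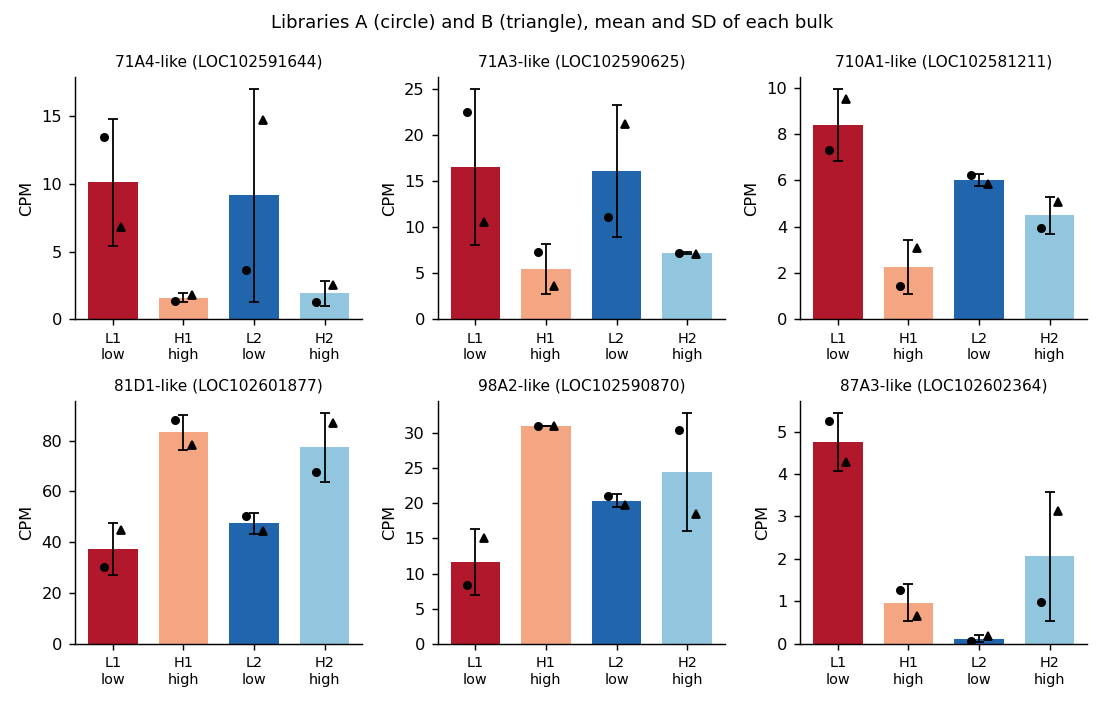
CPM of 6 P450 genes in the bulks L1, H1, L2 and H2. Bars are the mean of libraries A (circle) and B (triangle) and error bars are the SD. The CYP71A4-like, CYP71A3-like and CYP710A1-like genes were higher in both low TSC bulks, the CYP81D1-like gene was lower in both, the CYP98A2-like gene was lower in L1 (8.37 and 15.0 CPM, against 31.0 and 31.0 CPM in H1), and the CYP87A3-like gene was higher in L1 than H1 and lower in L2 than H2.

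By family, the 17 genes of family CYP71 included 2 that were higher and 5 that were lower in low TSC at p under 0.05, and the 7 of family CYP83 included 2 higher and 1 lower. The shares over all genes were 3.09% higher and 4.75% lower. Whether the counts of a family differ from these shares was not tested. Apart from LOC102584170, those lower in family CYP71 were the CYP71A9-like LOC102595891 (log2FC -1.10, SE 0.37), the CYP71D11-like LOC102603333 (-1.56, SE 0.54), and the CYP71A1-like LOC102597167 (-0.56, SE 0.23) and LOC102586123 (-1.14, SE 0.47). In family CYP72, 1 of 22 genes was higher and 0 were lower. None of the genes of families CYP82 (10 genes), CYP76, CYP736 (7 each), CYP78, CYP704 (5 each) and CYP89 (4 genes) had a p under 0.05. In family CYP736, 6 of 7 genes had a negative log2FC in L1 over H1, with a median of -1.02, and 4 of 7 in L2 over H2. Among the 6, LOC102583882 was at -0.0 (SE 0.61), and the gene counted as positive, LOC102596960, was at 0.0 (SE 0.67). The median log2FC of all genes was 0.02 in L1 over H1 and 0.01 in L2 over H2. In family CYP704, 4 of 5 genes had a positive log2FC in L1 over H1 and 5 of 5 in L2 over H2, and their summed level was 32.2 ± 4.55 CPM in low TSC and 21.1 ± 6.27 CPM in high TSC (SD, n = 4 each). The genes with the highest CPM in families CYP82, CYP736, CYP78 and CYP704 were not at p under 0.05. Their log2FC was 0.02 (SE 0.25) for the CYP82C4-like LOC102595151, -0.42 (SE 0.28) for the CYP736A12-like LOC102579200, 0.30 (SE 0.20) for the CYP78A5-like LOC102585692 and 0.50 (SE 0.22) for the CYP704C1-like LOC102578583. In family CYP71 it was 0.28 (SE 0.19) for the CYP71A1-like LOC102581353. The highest gene of family CYP83, LOC102604056, was higher in L1 than in H1 and is described below. The summed level of all 104 P450 genes was 1063 ± 102 CPM in low TSC and 1100.5 ± 46 CPM in high TSC (SD, n = 4 each).

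Of the enzymes named for phenylpropanoid and lignin steps, the CYP98A2-like LOC102590870, described below, was at p under 0.05 for TSC over both pairs (log2FC -0.84, SE 0.25). The hormone enzymes and ferulate 5-hydroxylase named here were not. The CYP90A1 gene LOC102604556, for a step of brassinosteroid synthesis, had 33.7 to 56.6 CPM in low TSC and 29.8 to 53.0 CPM in high TSC (log2FC 0.02, SE 0.23). The CYP734A1-like genes LOC102599333 and LOC102581155 are named for the enzyme that inactivates brassinosteroids, and their log2FC was -0.07 (SE 0.19) and 0.03 (SE 0.29). For the brassinosteroid genes CYP85A1 (LOC102603315) and CYP90B1 (LOC102603786) it was -0.10 (SE 0.55) and -1.50 (SE 0.93), and CYP90B1 had 6.66 CPM in H2 replicate A and at most 1.52 CPM elsewhere. The CYP711A1 gene LOC102593258, named for an enzyme of strigolactone synthesis in Arabidopsis, had a log2FC of 0.47 (SE 0.39). The CYP84A1 gene LOC102604007, for ferulate 5-hydroxylase of the lignin pathway, had a log2FC of -0.06 (SE 0.32). The SE of CYP85A1 and CYP90B1 were the widest of these.

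The first of the 2 comparisons that the study was designed around set L1 against H1, the bulks with high *AGPaseS-a* expression. The genes higher in L1 included 3 CYP83B1-like genes and the CYP710A1-like gene, and those lower included the CYP98A2-like gene of phenylpropanoid metabolism and the CYP81D1-like gene. At p under 0.05 there were 13 of the 105 P450 genes (12.4%, with 7 higher and 6 lower in L1), against 5.73% of all genes (2.39% higher and 3.34% lower). In the quasi-likelihood test of edgeR, adjusted by Benjamini-Hochberg, 0 of 105 passed both thresholds, as did 0.0% of all genes, and the lowest FDR was 0.789. DESeq2 had 16 at p under 0.05 (15.2%, against 8.22% of all genes) and called 1, the CYP83B1-like gene LOC102593183, among 37 genes in all. The libraries did not overlap in 45 genes (42.9%, against 37.1% of all genes), all 13 included (5.56% of all genes had both). The count of 13 was 7 without L1 replicate A (6.67%, against 2.14% of all genes), 20 without H1 replicate A (19.0%, against 3.71%) and 23 without H1 replicate A and H2 replicate B (21.9%, against 7.51%). It was 21 without H1 replicate B, where the share of 20% was below the 24.1% of all genes. With scaling to library totals, which moved the median of all genes to 0.14, 9 were higher and 4 lower.

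In family CYP83, 3 of 7 genes were higher and 1 was lower in L1 at p under 0.05, against 2.39% higher and 3.34% lower over all genes. In Arabidopsis, CYP83B1 acts in the synthesis of glucosinolates, compounds that potato does not make, so the name gives likeness and not a reaction. A cluster on scaffold NW_006239205.1, bases 194178 to 267551, held 5 of the CYP83B1-like genes and a CYP71A1-like gene. At its end, LOC102592842 had 45.4 and 10.3 CPM in L1, 6.27 and 7.7 CPM in H1, 34.0 and 45.5 CPM in L2, and 45.7 and 41.9 CPM in H2. Next to it, LOC102593183 had 588 and 33 counts in L1, 2 and 20 counts in H1, 260 and 372 counts in L2, and 245 and 217 counts in H2. L1 replicate A and all 4 libraries of L2 and H2 were high in both genes, and L1 replicate B and both libraries of H1 were low. The r of the 2 genes over the 8 libraries was 0.97.

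The log2FC of L1 over H1 was 1.99 (SE 0.60) for LOC102592842 and 4.05 (SE 1.21) for LOC102593183. Both values rested on L1 replicate A: without it they were 0.56 and 0.96, neither at p under 0.05. Without H1 replicate A and H2 replicate B they were 1.85 and 3.38, again not at p under 0.05. Their neighbour LOC102591837 had the opposite order, with 5.64 and 15.9 CPM in L1, 30.1 and 27.5 CPM in H1, 14.8 and 12.5 CPM in L2, and 16.1 and 15.6 CPM in H2 (log2FC -1.42, SE 0.44). It was lowest in L1 replicate A, where the other 2 genes were high, and its r was -0.75 with LOC102592842 and -0.85 with LOC102593183. Without L1 replicate A its log2FC was -0.85, not at p under 0.05, and without L1 replicate B it was -2.34.

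**Figure D4:**
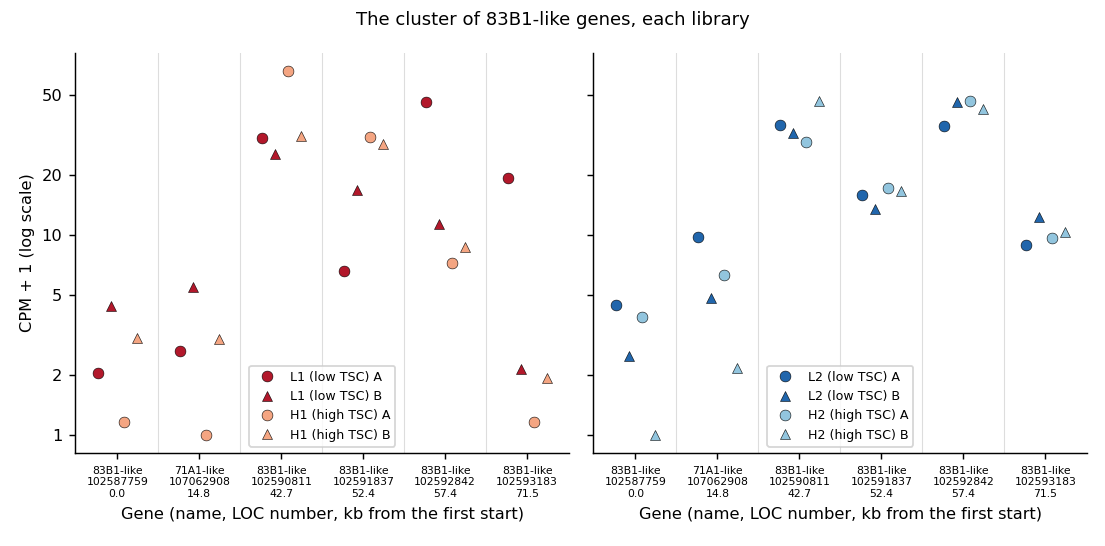
CPM + 1 on a log axis for the 6 genes of the cluster on scaffold NW_006239205.1, in the libraries of L1 and H1 (left) and of L2 and H2 (right). Genes are ordered by the distance of their start from the first start, 0 to 71.5 kb. LOC102592842 and LOC102593183 were high in L1 replicate A and in all libraries of L2 and H2 and low in L1 replicate B and H1, and LOC102591837 ran the opposite way in L1 and H1.

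A further CYP83B1-like gene, LOC102604056 on another scaffold, had 55.7 and 55.7 CPM in L1, 14.8 and 32.1 CPM in H1, 47.8 and 42.9 CPM in L2, and 51.6 and 36.3 CPM in H2. It was lowest in H1 replicate A, and its log2FC of L1 over H1 was 1.24 (SE 0.37), or 0.80 without that library and 1.91 without H1 replicate B. The CYP98A2-like gene LOC102590870 is named for an enzyme that adds a hydroxyl group to coumaroyl esters, on the way to chlorogenic acid and lignin. It had 8.37 and 15.0 CPM in L1 and 31.0 and 31.0 CPM in H1, and its log2FC was -1.41 (SE 0.36). In the other pair it had 21.0 and 19.7 CPM in L2 and 30.4 and 18.5 CPM in H2 (log2FC -0.27, SE 0.35), and the difference between the 2 pairs was -1.14 (SE 0.50), which was not at p under 0.05. The second CYP98A2-like gene, LOC102578747, had 7.43 and 18.3 CPM in L1 and 9.69 and 23.6 CPM in H1 (log2FC -0.38, SE 0.65). Of the remaining genes at p under 0.05, the CYP71A1-like LOC102597167 (-1.04, SE 0.32), the CYP72A219-like LOC102578981 (-1.0, SE 0.34) and the CYP76A2-like LOC102595929 (-1.07, SE 0.42) were lower in L1.

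The second comparison set L2 against H2, the bulks with low *AGPaseS-a* expression. A CYP87A3-like gene, a CYP71A1-like gene and a CYP71A9-like gene were lower in L2, and a CYP714A1-like gene was higher. There were 6 of the 105 P450 genes at p under 0.05 (5.71%, with 2 higher and 4 lower in L2), against 2.36% of all genes (1.04% higher and 1.32% lower). In the quasi-likelihood test of edgeR, adjusted by Benjamini-Hochberg, 0 of 105 passed both thresholds, as did 0.0% of all genes, and the lowest FDR was 1.0. DESeq2 had 11 at p under 0.05 (10.5%, against 3.35% of all genes) and called 1, the CYP87A3-like gene LOC102602364, among 26 genes in all. The libraries did not overlap in 31 genes (29.5%, against 32.2% of all genes), all 6 included (2.33% of all genes had both). The count of 6 was 12 without H2 replicate A (11.4%, against 8.78% of all genes) and 12 without H1 replicate A and H2 replicate B (11.4%, against 5.53%). With scaling to library totals, which moved the median of all genes to 0.12, 3 were higher and 2 lower.

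The 6 genes included the CYP71A4-like LOC102591644 and the CYP81D1-like LOC102601877, and these were the 2 genes with the same direction at p under 0.05 in both pairs. The CYP71A1-like gene LOC102586123 had 0.765 and 0.758 CPM in L2 and 5.53 and 3.65 CPM in H2, a log2FC of -2.59 (SE 0.69). In the other pair it had 1.19 and 3.59 CPM in L1 and 2.3 and 1.59 CPM in H1. The CYP71A9-like gene LOC102595891 had 3.64 and 7.64 CPM in L2 and 12.7 and 15.5 CPM in H2 (log2FC -1.32, SE 0.52), and without L2 replicate A it was -0.88, not at p under 0.05. The CYP714A1-like gene LOC102590239 is named for an Arabidopsis enzyme that inactivates gibberellins, hormones of growth. It had 50.9 and 51.5 CPM in L2 and 29.6 and 35.1 CPM in H2, a log2FC of 0.66 (SE 0.26), and it stayed at p under 0.05 in 3 of 8 fits with 1 library left out. In L1 it had 63.8 and 59.1 CPM and in H1 64.7 and 45.8 CPM.

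The change with TSC was compared between the pairs as the log2FC of L1 over H1 minus that of L2 over H2. A CYP87A3-like gene went opposite ways in the 2 pairs, and 3 CYP83B1-like genes were higher in L1 than H1 with little difference between L2 and H2. At p under 0.05 there were 6 of the 105 P450 genes (5.71%, with 5 positive and 1 negative), against 1.57% of all genes (0.839% positive and 0.736% negative). In the quasi-likelihood test of edgeR, adjusted by Benjamini-Hochberg, 0 of 105 passed both thresholds, as did 0.0% of all genes, and the lowest FDR was 1.0. DESeq2 had 9 at p under 0.05 (8.57%, against 2.33% of all genes) and called 1, among 6 genes in all. The count of 6 was 2 without L1 replicate A (1.9%, against 0.956% of all genes), 3 without L2 replicate A (2.86%, against 1.11%), 14 without H1 replicate B (13.3%, against 10.7%) and 15 without H1 replicate A and H2 replicate B (14.3%, against 4.7%). Without H2 replicate A there were 9 (2 positive and 7 negative), and without L1 replicate B also 9 (3 positive and 6 negative), so the balance of directions turned.

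The gene with the lowest p was the CYP87A3-like LOC102602364, whose name comes from a rice gene known to respond to auxin. It had 167 and 125 counts in L1 (5.24 and 4.28 CPM), 16 and 14 counts in H1 (1.27 and 0.654 CPM), 2 and 6 counts in L2 (0.0612 and 0.182 CPM), and 28 and 73 counts in H2 (0.992 and 3.14 CPM). It was higher in L1 than in H1 (log2FC 2.32, SE 0.81) and lower in L2 than in H2 (log2FC -4.03, SE 0.91). The difference was 6.35 (SE 1.22) in edgeR and 6.4 in DESeq2 with an FDR of 0.00382. It lay between 5.31 and 7.28 with any 1 library left out and was 5.84 (SE 1.00) without H1 replicate A and H2 replicate B. The gene has a long span, from base 29804 of scaffold NW_006239534.1, and at 0.157 CPM per kb it was among the lowest of the 105.

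Of the other 5, LOC102586123 had a difference of 2.89 (SE 0.95), which was 1.89 and not at p under 0.05 without L1 replicate B. The CYP83B1-like genes LOC102592842 (2.13, SE 0.82), LOC102593183 (3.95, SE 1.55) and LOC102604056 (1.20, SE 0.52) were higher in L1 than H1 and had a log2FC of -0.14, 0.10 and 0.04 in L2 over H2. The difference of the first was 0.70 and that of the next 0.86 without L1 replicate A, neither at p under 0.05. The CYP72A219-like gene LOC102578981 had 5.67 and 5.72 CPM in L1, 10.3 and 12.4 CPM in H1, 6.86 and 6.33 CPM in L2, and 6.2 and 4.34 CPM in H2, a difference of -1.32 (SE 0.48). With 1 library left out it stayed at p under 0.05 in 3 of 8 fits, and LOC102604056 in 2 of 8, with 0.76 without H1 replicate A and 1.87 without H1 replicate B.

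**Figure D5:**
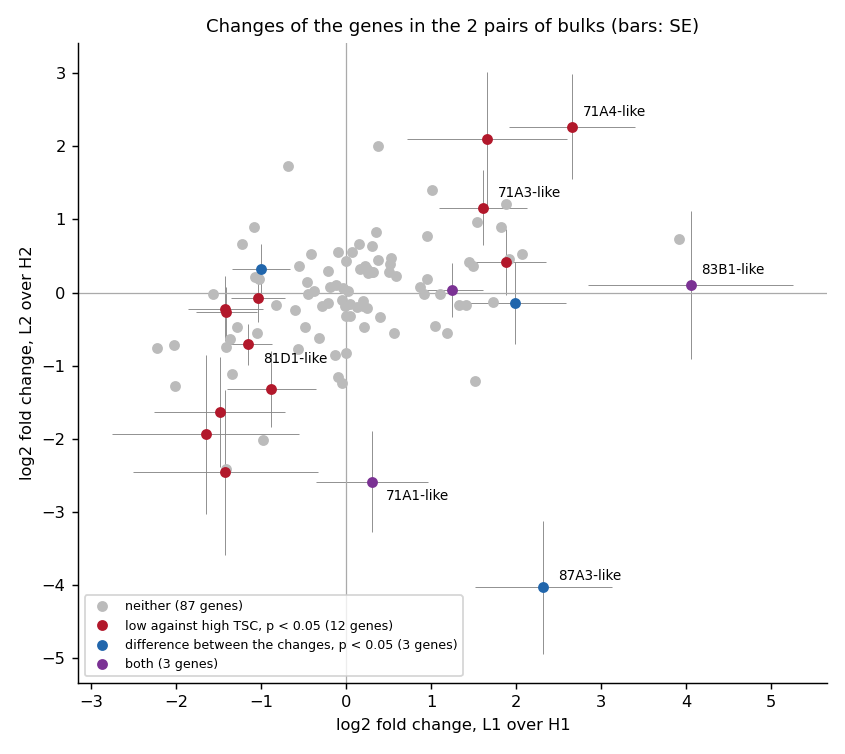
log2FC of L1 over H1 (x axis) and of L2 over H2 (y axis) for the 105 genes, with SE bars for coloured genes. Colours mark p under 0.05 for low against high TSC (12 genes), for the difference between the changes (3 genes) or for both (3 genes), and 87 genes had neither. The CYP71A4-like gene lies at 2.66 and 2.27 and the CYP87A3-like gene at 2.32 and -4.03.

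The bulks with high *AGPaseS-a* expression (L1 and H1) were also set against those with low expression (L2 and H2). As CPM, a pair of CYP72A219-like genes of 1 cluster and a CYP78A6-like gene were lower in every library of the high class, 1 of the pair by a narrow gap. At p under 0.05 there were 10 of the 105 P450 genes (9.52%, with 3 higher and 7 lower in the high class), against 3.13% of all genes (1.46% higher and 1.68% lower). In the quasi-likelihood test of edgeR, adjusted by Benjamini-Hochberg, 0 of 105 passed both thresholds, against 0.0049% of all genes (1 gene), and the lowest FDR was 1.0. DESeq2 had 11 at p under 0.05 (10.5%, against 4.17% of all genes) and called 0, with 39 genes called in all. The libraries did not overlap in 4 genes (3.81%, against 2.26% of all genes), and 3 of the 10 were among them (1.08% of all genes had both). The count of 10 was 16 without H1 replicate A (15.2%, against 4.35% of all genes), 21 without H1 replicate B (20%, against 11.8%), 4 without L2 replicate B (3.81%, against 1.91%) and 18 without H1 replicate A and H2 replicate B (17.1%, against 6.35%).

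Of the 3 genes at p under 0.05 with no overlap between the classes, 2 were CYP72A219-like. LOC102579312 had 3.35 and 3.22 CPM in L1, 1.67 and 1.91 CPM in H1, 4.35 and 5.58 CPM in L2, and 4.01 and 5.41 CPM in H2 (log2FC -0.99, SE 0.31). LOC102578644, 58.4 kb away on the same scaffold, had 4 and 14 counts in L1, 0 and 4 counts in H1, 35 and 38 counts in L2, and 34 and 12 counts in H2 (log2FC -2.43, SE 0.95). The last was the CYP78A6-like gene LOC102598017, of a family that in Arabidopsis promotes organ growth, with 4 and 6 counts in L1, 0 and 7 counts in H1, 21 and 20 counts in L2, and 36 and 35 counts in H2 (log2FC -2.41, SE 0.93). As CPM, all 3 were lower in every library of the high class. For LOC102578644 the gap was narrow, with 0.479 CPM in L1 replicate B and 0.516 CPM in H2 replicate B. Before scaling, L1 replicate B had more counts of this gene than H2 replicate B (14 against 12). With 1 library left out, LOC102579312 stayed at p under 0.05 in 7 of 8 fits, LOC102578644 in 4 and LOC102598017 in 3. For the last 2 genes the log2FC was -4.72 and -5.07 without H1 replicate B, which leaves H1 with 0 counts, so these values are not limits. The CYP83B1-like genes LOC102592842 (log2FC -1.58, SE 0.41) and LOC102593183 (-1.95, SE 0.78) were lower and the CYP87A3-like gene LOC102602364 (2.06, SE 0.59) was higher in the high class, with overlap between the classes.

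The P450 genes lay on 63 scaffolds, and 50 of them were in 15 clusters of genes whose starts were within 100 kb of a neighbour. Clusters were formed from the 105 genes only, and the positions of P450 genes below the count minimum were not looked at. In 12 of the clusters all genes were of 1 subfamily. The levels within a cluster could differ widely: 5 genes of the CYP76A subfamily within 28.7 kb of scaffold NW_006238934.1 had mean levels of 0.679 to 66.6 CPM, and 5 genes of the CYP72A subfamily on NW_006239025.1 had 0.592 to 43.0 CPM. The largest cluster, 7 genes of the CYP72A subfamily within 67.1 kb of NW_006239028.1, had 0.548 to 5.3 CPM, the highest being the pseudogene LOC102583853. Over the 78 pairs of genes in clusters the median r of their levels over the 8 libraries was 0.02, and 9 pairs had an r of at least 0.7 and 7 of -0.7 or below. Most pairs within a cluster thus did not follow each other. These pairs include genes that are not next to each other and genes with few counts. Adjacent genes were not summarised alone, and no pairs from outside the clusters were set beside them. The 9 pairs with a high r included the neighbours LOC102590625 with LOC102591644 and LOC102592842 with LOC102593183 given above, LOC102587759 with LOC107062908 (14.8 kb apart, r = 0.88), the CYP736A12-like LOC102584862 with LOC102592596 (72.2 kb apart, r = 0.82) and LOC102578644 with LOC102579312 (r = 0.76).

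Genes around the P450s were taken from lists defined by product names. Over all genes tested, 3.09% were higher and 4.75% lower in low TSC at p under 0.05. Whether the counts of a list differ from these shares was not tested. Of 13 genes for P450 reductase, cytochrome b5, which can pass electrons to P450s, and cytochrome b5 reductase, 0 were higher and 2 lower in low TSC at p under 0.05, the b5-like genes LOC102598635 (log2FC -1.32, SE 0.44) and LOC102604534 (-0.95, SE 0.34). LOC102604534 had 87.2 CPM in H1 replicate A and 17.2 to 28.5 CPM in the other libraries. Of 112 P450s named by their reaction, 83 were tested, of which 4 were higher and 3 lower in low TSC. The 4 that were higher were among 25 tested premnaspirodiene oxygenases, named for an enzyme of sesquiterpene synthesis, of which LOC102603857 had a log2FC of 0.64 (SE 0.22) and LOC102605141 of 0.66 (SE 0.29). A further one of the 4, LOC102585554, rested on L2 replicate B, with 0.0941 and 0.513 CPM in L1, 1.83 and 0.373 CPM in H1, 0.674 and 6.06 CPM in L2, and 0 CPM in both libraries of H2. Among those lower was the trans-cinnamate 4-monooxygenase-like gene LOC102605307, for a step earlier in phenylpropanoid metabolism than that of the CYP98A enzymes. It had 57.7 to 76.4 CPM in low TSC and 91.3 to 132.0 CPM in high TSC (log2FC -0.64, SE 0.18). The other gene named for this step, LOC102605644, had a higher mean level and was not at p under 0.05. It overlapped, with 80.3 to 156.0 CPM in low TSC and 75.8 to 113.0 CPM in high TSC.

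The 31 tested of 49 sesquiterpene phytoalexin genes, a list that shares the premnaspirodiene oxygenases, included 4 higher and 1 lower in low TSC, and summed to 202 to 247 CPM in low TSC and 163 to 187 CPM in high TSC. Its median log2FC was -0.14, so its median and its sum differed in direction. Much of the sum came from 1 gene, the premnaspirodiene oxygenase-like LOC102605141. It had 97.1 to 159.0 CPM in low TSC and 52.6 to 102.0 CPM in high TSC. Of 10 genes found by the words set for the glycoalkaloid pathway, 0 were higher and 0 lower. Their products were general sterol enzymes (cycloartenol synthases, cycloeucalenol cycloisomerase, delta(24)-sterol reductases and sterol glucosyltransferases), and none was named for glycoalkaloid synthesis. In the marker lists, 0 of 20 tested patatin genes were higher and 5 lower in low TSC. Of 18 periderm and wound genes, 1 was higher and 2 lower (median log2FC -0.09, against a higher sum). Of the other lists, 0 of 24 green tissue genes were higher or lower, and 1 of 36 genes of dividing cells was higher and 8 lower. Beside these counts, the shares over all genes tested were 3.09% higher and 4.75% lower.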

How the data were processed

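Poly(A) RNA of 4 bulks with 2 libraries each was sequenced. Per the study's methods, Trimmomatic, TopHat 2.0.9 with Bowtie 2.1.0 on SolTub_3.0, and HTSeq were run, and the authors deposited the raw counts per gene used here, without normalization. How HTSeq was set for strand and for reads on several genes is not stated there. In the authors' tables of comparisons, 192484 counts were repeated and equalled those in the table of all libraries. Their normalized counts, fold changes and p-values, and 2 columns that match no sample, were not used.

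Of 32768 genes, 20389 passed filterByExpr. Counts were scaled by TMM and tested in edgeR 4.0.16 (R 4.3.3; glmQLFit and glmQLFTest) with 1 mean per bulk and all 8 libraries, and p-values were adjusted by Benjamini-Hochberg over all genes tested. The SE is the log2FC over the square root of F. Calls needed an FDR below 0.05 together with a log2FC of 1.5 or more in size. CPM are on TMM-adjusted totals of tested genes. The procedure was tested on simulated data. Alternatives were DESeq2 1.42.0, RLE factors, library totals, other filters, the 4 libraries of a comparison, a block for the replicate letter, leaving out single libraries, and H1 replicate A and H2 replicate B left out.

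The members, the lists and these choices were made with earlier results of these data known. Named are members at p under 0.05 with no overlap (up to 10 per comparison), 10 of the 11 highest by CPM, and the reductase. Further named are the highest gene of each family of at least 5, and clusters. Genes in which H1 replicate A and H2 replicate B stood apart are named too. Other members, such as the hormone and lignin enzymes and those at p under 0.05 that overlapped, were named after their values were seen. So were genes of the lists. The lists were redox partners, P450s named by reaction, sesquiterpene phytoalexins, sterol and glycoalkaloid words, patatins, periderm, green tissue and dividing cells. The words for cytochrome b5 also matched 20 cytochrome b561 genes, 8 of them tested, which are not P450 redox partners and were left out after their values were seen. Gene positions were in the deposited annotation, and 104 of the 105 genes were found in the RefSeq table of SolTub_3.0, all on unplaced scaffolds.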

Additional observations from a re-analysis of the deposited data

Results flagged for a closer look

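In 4 libraries of low or of high TSC, a library was tested for standing apart from the other 3 by Dixon's ratio, with the critical value of 0.829, for 42 named P450 genes in 84 groups; chance gives about 1 flag in 20 groups, and 6 were found. In high TSC, the CYP98A2-like gene LOC102590870 stood at 18.5 CPM in H2 replicate B, with 30.4 to 31.0 CPM in the rest, and the CYP71A3-like gene LOC102590625 stood at 3.59 CPM in H1 replicate B, with 7.13 to 7.38 CPM in the rest. The CYP72A219-like gene LOC107060887 had 0.0794 CPM in H1 replicate A and 0.532 to 0.607 CPM in the other high TSC libraries. In H2 replicate A, the CYP76A2-like gene LOC102594375 had 94.6 CPM, against 37.6 to 42.7 CPM in the other high TSC libraries, and the CYP71D7-like gene LOC102579846 had 8.08 CPM, against 0.238 to 1.35 CPM. In low TSC, the CYP71A1-like gene LOC102586123 stood at 3.59 CPM in L1 replicate B, with the other libraries at 0.758 to 1.19 CPM. By the unadjusted edgeR test, the changes with TSC differed between the 2 pairs of bulks at p under 0.05 in the 6 P450 genes given above. None of the 6 passed an FDR under 0.05. Of these, 2 were flagged for opposite changes in L1 over H1 and in L2 over H2. They were the CYP87A3-like gene LOC102602364 (2.32 and -4.03, difference 6.35) and the CYP72A219-like gene LOC102578981 (-1.0 and 0.32, difference -1.32).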

How the results depend on the processing

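Counts of P450 genes at p under 0.05 moved with the libraries more than with the method. Leaving out 1 library at a time, where a bulk of 1 library is assumed to vary like the others, gave 7 to 21 genes in L1 against H1 (13 with all libraries), 4 to 12 in L2 against H2 (6), 7 to 20 in low against high TSC (15), 2 to 14 for the difference between the changes (6) and 4 to 21 for the *AGPaseS-a* classes (10). The highest counts are not all an excess of P450 genes: without H1 replicate B, 20% of them in L1 against H1 and 19.0% in low against high TSC were below the 24.1% and 24.2% of all genes. Without H1 replicate A and H2 replicate B there were 23, 12, 20, 15 and 18. In L2 against H2, DESeq2 gave 11 and no filter on low counts gave 10. At both thresholds DESeq2 called 1 gene in each of the first 4 comparisons, where edgeR called 0. Replicate letters did not pair the libraries (correlations of deviations between -0.536 and 0.196), and with the letter as a replicate block the counts were 13, 4, 11, 3 and 9. The 31 values of genes named for their p were refitted, and none reversed its direction; other named genes were not, and those with a log2FC smaller than the shift of 0.12 to 0.14 under library totals have no sure direction. Of the 31, all stayed at p under 0.05 with DESeq2, with RLE factors and with no filter, 30 with a minimum of 80 counts, 27 with library totals, 26 with the block, 24 without H1 replicate A and H2 replicate B, and 18 to 29 without 1 library. Fitting only the 4 libraries of a comparison kept 16 of 16. Depth limits the 18 genes under 1 CPM, and with 2 libraries per bulk an FDR above the threshold does not show that levels were equal.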
